A study of Mus musculus with 6 samples.

Results

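Transcripts of 5 SRY-box genes, *Sox9*, *Sox8*, *Sox10*, *Sox4* and *Sox11*, and of *Dmrt1* were followed through the cell types of the fetal mouse gonad. These 6 genes were taken by symbol from the 26251 genes listed in the single cell mRNA count matrices of E15.5 gonads. The study compared 3 groups with 2 libraries each. The control XY and control XX embryos were wild type (Amh+/+; Inhbb+/+), and the dKO XY embryos lacked both *Amh* and *Inhbb* (Amh-/-; Inhbb-/-) in every cell, all on a C57BL/6 background. *Amh* encodes anti-Müllerian hormone (AMH) and *Inhbb* the subunit of activin B, and neither protein was measured here. Both gonads of an animal were dissociated together and the cells were frozen and thawed before capture. The comparisons ask how these genes stand in XY supporting cells when both of these genes are deleted.

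Supporting cells are the somatic cells that surround the germ cells, and they become Sertoli cells in the testis and granulosa cells in the ovary. SRY starts testis development by raising *Sox9*, and the SOX9 protein, a transcription factor of the HMG box family, drives the Sertoli programme and maintains its own expression. SOX8 and SOX10 belong to the same subgroup (SoxE) and can act in place of SOX9 at many targets, SOX4 and SOX11 (SoxC) are broadly expressed in embryonic progenitors, and DMRT1, a DM-domain factor, keeps postnatal Sertoli cells from turning into granulosa cells.

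The cells that passed the filters numbered 4781 to 8569 per library (39350 in all) with 118475468 to 221675316 unique molecular identifiers (UMIs, 1 per captured mRNA) per library, and 175 barcodes occurred in more than 1 library. Of all barcodes, 24.4% and 28.3% had a mitochondrial share too high to be kept in dKO XY, against 2.22% to 9.35% in the control libraries. *Amh* was at 2053 and 1917 CPM (UMIs of a gene per 1e6 UMIs of the cells summed) in control XY supporting cells, and the dKO XY pair had 17.9 and 15.7 CPM, and *Inhbb* was at 163 and 186 CPM and at 41.7 and 50.6 CPM. Transcripts counted for *Inhbb* thus remained in the libraries labelled Inhbb-/-, and the counts per gene do not show whether they came from outside the deleted part, so *Inhbb* is a weaker check of the labels than *Amh*. Supporting cells were those in clusters led by Sertoli, granulosa or supporting lineage markers, and there were 255 and 529 of them per control XY library, 1284 and 961 per dKO XY library and 3035 and 1197 per library of control XX. The cells of the control XY group lay mostly in the cluster with Sertoli markers and those of control XX mostly in the cluster with granulosa markers. The cluster with only the general supporting lineage markers was almost all dKO XY, with 418 and 445 cells against 13 and 19 in control XY. All 11 Sertoli markers were detected in both XY groups, with summed levels of 7246 to 8202 CPM in control XY, 5106 to 6829 CPM in dKO XY and 1043 to 1148 CPM in control XX. A sum over such a population cannot tell apart fewer cells of a kind and less RNA per cell.

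In dKO XY supporting cells *Sox8* and *Dmrt1* were lower than in control XY, while *Sox9*, *Sox10*, *Sox4* and *Sox11* were not called. *Sox9* (GRCm38 chromosome 11, 112782224 to 112787760, plus strand, 3 exons) was at 360 and 347 CPM in the control XY pair, against 341 and 282 CPM in the dKO XY pair. The groups did not overlap, but the log2 fold change of -0.17 (SE 0.13) did not pass the test (adjusted p = 0.42, edgeR's quasi-likelihood test with Benjamini-Hochberg adjustment). *Sox8*, on the minus strand of chromosome 17 (25565892 to 25570686, 3 exons), was at 52.1 and 61.0 CPM in the control XY pair, against 28.4 and 27.3 CPM in the dKO XY pair. Both dKO XY libraries were far below both control XY libraries, with a log2 fold change of -1.02 (SE 0.13, adjusted p = 5.04e-04 in the same edgeR test). *Sox8* was called lower under each of the alternative settings and with each library left out, although without the cluster of general supporting lineage markers the change was -0.55.

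*Dmrt1*, which spans 5 exons on chromosome 19 (25505618 to 25604329, plus strand), was at 38.2 and 35.3 CPM in the control XY pair, against 27.9 and 22.6 CPM in the dKO XY pair. The dKO XY libraries were the lower pair without overlap, and the difference was called (log2 fold change -0.53, SE 0.16, adjusted p = 0.044 in the edgeR test). The call was lost when control XY replicate 1, control XY replicate 2 or dKO XY replicate 2 was left out, with a replicate block (-0.54) and in cells under 10% mitochondrial UMIs (-0.72), and the change was -0.08 (adjusted p = 0.77 in the same test) without the cluster of general supporting lineage markers. *Dmrt1* is also a germ cell gene, and the 6 germ cell markers summed to 28.0 to 98.8 CPM in control XY supporting cells and to 220 to 284 CPM in dKO XY. All 6 were detected in every library, and their part in the *Dmrt1* level was not tested.

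*Sox10*, a gene better known from neural crest and glia (chromosome 15, 79154908 to 79165240, minus strand, 5 exons), was at 9.49 and 11.4 CPM in the control XY pair, against 12.4 and 11.9 CPM in the dKO XY pair. The change of 0.22 (SE 0.18) was not called in the edgeR test (adjusted p = 0.46), although without the cluster of general supporting lineage markers it was 0.72 and called (adjusted p = 0.018). The SoxC genes were not called. *Sox4*, a single exon gene on chromosome 13 (28948919 to 28953713, minus strand), was at 707 and 806 CPM in the control XY pair, against 825 and 709 CPM in the dKO XY pair. *Sox11*, also of 1 exon (chromosome 12, 27334264 to 27342574, minus strand), was at 39.8 and 57.8 CPM and at 57.0 and 47.2 CPM. The groups overlapped for both genes and neither was called, though *Sox11* was higher (0.55) and called without cells with *Sycp3*, a germ cell gene, or *Tcf21*, an interstitial gene. All 8 interstitial markers were detected in every library of supporting cells and summed to 1124 to 1227 CPM in control XY, 488 to 578 CPM in dKO XY and 469 to 715 CPM in control XX, and their part in the *Sox11* level was not tested. *Sox4* overlaps *Gm26735* on the opposite strand, which the matrices list as a gene of its own, and *Sox8* overlaps *2810468N07Rik*, which they do not list.

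Of the 6 genes, 2 were thus called lower and 0 higher in supporting cells of dKO XY against control XY, in a comparison that called 16.7% of all 15944 genes tested, 6.84% lower and 9.9% higher. The median log2 fold change of the 6 was -0.07, beside 0.02 for all genes tested.

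**Figure D1:**
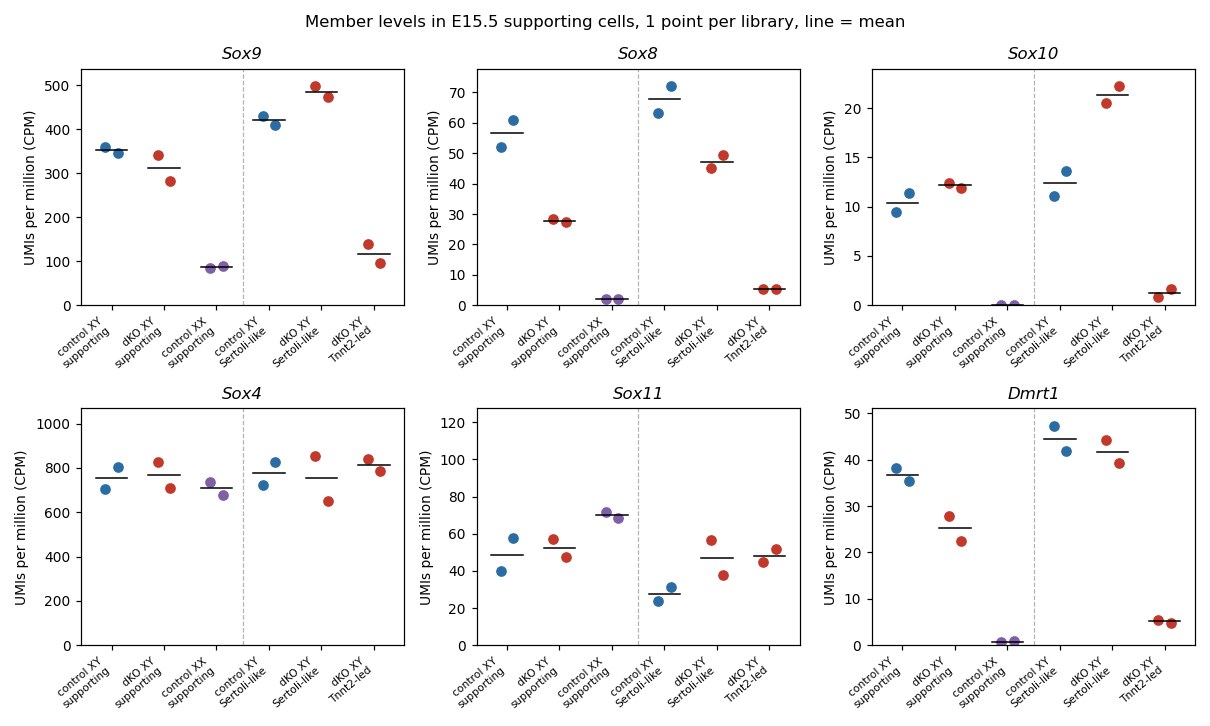
Levels of the 6 genes in CPM (vertical axes, each from 0), 1 point per library with a line at the mean of the 2 libraries, for all supporting cells of control XY (blue), dKO XY (red) and control XX (purple) and, right of the dashed line, for Sertoli-like cells and the *Tnnt2*-led dKO XY subcluster. *Sox8* of dKO XY supporting cells (28.4 and 27.3 CPM) sits between control XY and control XX, while *Sox4* overlaps between the XY groups.

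Control XX supporting cells had the lowest levels of *Sox9*, *Sox8*, *Sox10* and *Dmrt1* in both libraries. *Sox9* was still present at 83.8 and 89.7 CPM in control XX, well below both XY groups, with a log2 fold change of -2.08 against control XY (SE 0.13, adjusted p = 1.2e-06 in the edgeR test). *Sox8* was at 2.20 and 2.15 CPM (log2 fold change -4.75, SE 0.15) and *Dmrt1* at 0.61 and 0.86 CPM (-5.77, SE 0.21). *Sox10* was all but missing, with 3 UMIs over both control XX libraries against 253 in control XY, a ratio of 418 (95% interval 142 to 2043, which like all such intervals here covers counting error only). *Sox11* was higher in control XX, at 71.6 and 68.6 CPM (log2 fold change 0.46, SE 0.17, adjusted p = 0.045 in the edgeR test), a call that was lost without control XY replicate 1, control XX replicate 1 or control XX replicate 2, and with a replicate block (0.47), RLE size factors (0.45) or cells under 10% mitochondrial UMIs (0.37). The change was 0.21 without control XY replicate 1 and 0.76 without control XY replicate 2, and it was 0.83 without the top 8% of doublet scores and 0.99 without cells with *Sycp3* or *Tcf21*, the last 3 called. *Sox4*, at 737 and 679 CPM, overlapped with control XY and was not called. This comparison called 5 of the 6 genes and 48.6% of all genes (23.6% lower, 25.1% higher).

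Against the same control XX libraries, dKO XY supporting cells were higher in the 3 SoxE genes and in *Dmrt1*, with log2 fold changes of 1.90 for *Sox9* (SE 0.13), 3.73 for *Sox8* (SE 0.15), 8.76 for *Sox10* (SE 0.32) and 5.23 for *Dmrt1* (SE 0.21), all called. *Sox10* had 891 UMIs in dKO XY, 476 times the control XX level (162 to 2311). *Sox4* (0.17, SE 0.14) and *Sox11* (-0.37, SE 0.17) were not called, though *Sox11* was without the filter on low counts (-0.38) and without cells with *Sycp3* or *Tcf21* (-0.44). The comparison called 40.8% of all genes, and as the 3 comparisons of supporting cells share libraries they are not independent of each other.

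The supporting cells were clustered again, and the cells of 2 subclusters with Sertoli markers (Sertoli-like cells) were compared between the XY groups, with 190 and 407 cells from control XY libraries and 678 and 427 from dKO XY libraries. The larger subcluster had 10 Sertoli markers past the rule, but its highest class over all lists was germ (6 markers), and its top 10 genes held the germ cell genes *Dppa5a*, *Dppa3*, *Dppa4* and *Utf1* beside the Sertoli markers *Cst9* and *Etd*. The other, of dividing cells, had Sertoli as its highest class. The summed Sertoli markers of both were 8617 to 9919 CPM in control XY and 8696 to 10532 CPM in dKO XY. In these cells *Sox8* was lower, *Sox10* and *Sox11* were higher, and *Sox9*, *Sox4* and *Dmrt1* were not called, in a comparison that called 14.9% of all genes (6.03% lower and 8.91% higher).

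*Sox9* was at 430 and 411 CPM in control XY Sertoli-like cells, against 498 and 473 CPM in the dKO XY pair. The dKO XY libraries were the higher pair, but the log2 fold change of 0.16 (SE 0.14) was not called (adjusted p = 0.55, edgeR's quasi-likelihood test), and it turned to -0.05 in the dividing subcluster alone. *Sox8* was at 63.4 and 72.1 CPM in the control XY pair, against 45.0 and 49.3 CPM in the dKO XY pair. The groups were apart, the dKO XY pair lower, and the log2 fold change of -0.57 (SE 0.13, adjusted p = 0.010 in the edgeR test) was called. The call was lost without control XY replicate 2 (-0.46) or dKO XY replicate 1 (-0.48).

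*Sox10* was at 11.1 and 13.6 CPM in control XY Sertoli-like cells, against 20.5 and 22.2 CPM in the dKO XY pair. Both dKO XY libraries were above both controls, with a log2 fold change of 0.72 (SE 0.18, adjusted p = 0.019 in the edgeR test), which was 0.61 and no longer called without control XY replicate 1 and 0.64 without dKO XY replicate 2. It was 0.50 in the dividing subcluster alone and 0.58 in cells under 10% mitochondrial UMIs, neither called. With components of the supporting cells alone it was 0.48 and not called, but there the other Sertoli cells split by group, into a subcluster led by germ transcripts (465 and 306 cells of dKO XY, 11 and 24 of control XY) that was left out and a Sertoli one (4 and 2 cells of dKO XY, 124 and 211 of control XY), so that the cells compared differed in kind. As *Sox10* marks glia, other glial and neural crest genes were read in the same cells. *Erbb3*, a neuregulin receptor gene, was at 7.46 and 11.5 CPM in the control XY pair, against 36.1 and 43.7 CPM in the dKO XY pair, and the neural crest gene *Foxd3* and the glial cadherin gene *Cdh19* were at most 0.66 CPM in each library. Their part in the *Sox10* level was not tested.

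*Sox11* was at 23.7 and 31.4 CPM in control XY Sertoli-like cells, against 56.5 and 37.6 CPM in the dKO XY pair. The groups did not overlap, though the dKO XY libraries differed from each other by more than the controls did, and the change of 0.70 (SE 0.19, adjusted p = 0.022 in the edgeR test) was 0.54 without control XY replicate 1 and 0.41 without dKO XY replicate 1, neither called. *Sox4* (723 and 829 CPM against 856 and 649 CPM) and *Dmrt1* (47.3 and 41.8 CPM against 44.3 and 39.2 CPM) overlapped between the groups. Germ cell transcripts were again higher beside these values, at 32.9 to 130 CPM in control XY and 344 to 457 CPM in dKO XY Sertoli-like cells. Their part in these results was not tested.

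The remaining dKO XY supporting cells were largely in 1 subcluster led by *Tnnt2*, *Spon1* and *Smoc2*, with 416 and 420 cells of dKO XY and few others (control XY 11 and 25, control XX 23 and 7). It passed neither the Sertoli nor the granulosa rule, with Leydig markers (5 passed) as its highest class, and is called here by its leading gene. The rule sets a subcluster against the other supporting cells, many of them control XX. In its dKO XY cells granulosa markers summed to 2764 to 3269 CPM. They summed to 1564 to 1668 CPM in dKO XY Sertoli-like cells and 3175 to 3244 CPM in control XX supporting cells. Sertoli markers summed to 1636 to 1771 CPM. Leydig markers summed to 318 to 393 CPM, beside 23923 to 23985 CPM in dKO XY Leydig cells. Interstitial markers summed to 604 to 614 CPM, beside 4981 to 5172 CPM in dKO XY interstitial cells. They summed to 185 to 195 CPM in dKO XY Sertoli-like cells. At resolution 0.5 a subcluster led by *Colec11* and *Spon1* (74 and 81 cells of dKO XY) had interstitial as its highest class (8 markers). With components of the supporting cells alone, the *Tnnt2*-led subcluster did (7 markers). The part of interstitial transcripts in the levels below was not tested. *Sox9*, *Sox8*, *Sox10* and *Dmrt1* were below their Sertoli-like levels in the *Tnnt2*-led cells. *Sox9* was at 138 and 96.2 CPM, beside the 69.1 and 93.1 CPM of control XX granulosa-like cells. *Sox8* was at 5.34 and 5.29 CPM, *Dmrt1* at 5.34 and 4.86 CPM and *Sox10* at 0.87 and 1.64 CPM, each above the control XX granulosa-like cells, which had 1.98 to 2.16 CPM of *Sox8*. Coelomic epithelial cells of the dKO XY libraries had 2.32 to 3.92 CPM of *Sox8*, 1.01 to 5.81 CPM of *Dmrt1* and 0.58 to 1.62 CPM of *Sox10*. The *Tnnt2*-led levels were thus above these for *Sox8*, but within or overlapping their range for *Dmrt1* and *Sox10*. Endothelial cells of the same libraries were lower for each gene, with 0.46 to 0.53 CPM of *Sox10*. The part of Sertoli transcripts free in the cell suspension was not tested. *Sox4* (841 and 787 CPM) and *Sox11* (44.9 and 51.5 CPM) were within or near the range of the Sertoli-like cells. Since the genes of the cells clustered define a subcluster, these levels are a description without a test.

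Ovarian pathway genes were read in the same cells. In the *Tnnt2*-led subcluster *Foxl2*, the granulosa forkhead factor, was at 75.9 and 110 CPM (202 and 212 CPM in control XX granulosa-like cells), *Runx1*, which acts with it, at 106 and 121 CPM (172 and 139 CPM) and *Fst*, the gene of the activin antagonist follistatin, at 144 and 104 CPM (1472 and 1314 CPM). In dKO XY Sertoli-like cells *Foxl2* was at 4.09 and 12.3 CPM and *Fst* at 6.01 and 8.61 CPM, but *Runx1* was at 56.1 and 59.3 CPM, against 1.66 and 2.07 CPM in control XY. *Dhh*, the Sertoli hedgehog ligand, was at 232 and 185 CPM in dKO XY Sertoli-like cells, 249 and 234 CPM in control XY and 24.9 and 22.2 CPM in the *Tnnt2*-led cells.

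The 13 clusters of all cells were merged by name into 11 cell types, since 3 of them were interstitial. Across these types the SoxE genes were highest in Sertoli cells of both XY groups, while the SoxC genes were broad. *Dmrt1* was highest in Sertoli cells in control XY, where germ cells were read in 1 library (15 cells). It was highest in germ cells in dKO XY and control XX. The Sertoli cluster had 354 to 378 CPM of *Sox9* in control XY and 448 to 466 CPM in dKO XY. Next came the general supporting lineage cluster (79.8 to 86.7 CPM in control XY) and interstitial cells (37.2 to 46.6 CPM), and from pericytes (18.5 to 27.0 CPM) downward most neighbours in the order overlapped. In control XX the granulosa cluster led with 83.8 to 90.1 CPM and the next, coelomic epithelium, had 14.8 to 16.1 CPM.

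*Sox8* was at 54.7 to 62.4 CPM in the control XY and 41.3 to 45.2 CPM in the dKO XY Sertoli cluster, and elsewhere it was at most 12.3 CPM, in the few control XY cells of the supporting lineage cluster. *Sox10* was at 10.1 to 11.7 CPM and 18.7 to 20.4 CPM in the Sertoli clusters and at most 3.60 CPM in any other cluster. *Dmrt1* was at 36.2 to 40.4 CPM and 37.1 to 41.1 CPM in Sertoli cells. Germ cells had 43.8 to 51.1 CPM of it in dKO XY (411 and 277 cells), above the Sertoli cluster of the same libraries, and 10.4 to 17.7 CPM in control XX. A single control XY library held at least 10 germ cells, with 16.1 CPM from 15 cells, so the control XY order rests on few cells.

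*Sox4* was highest in the supporting types, at 1137 to 1151 CPM in the supporting lineage cluster and 679 to 797 CPM in Sertoli cells of control XY, followed without overlap by pericytes (568 to 646 CPM), and it was lowest in Leydig cells (117 to 151 CPM), which overlapped with immune cells. *Sox11* had another order. Endothelial cells led in control XY (296 to 316 CPM) and dKO XY (262 to 322 CPM), interstitial cells followed (182 to 204 CPM and 169 to 197 CPM), and Sertoli cells had 38.8 to 56.7 CPM in control XY. In control XX the order of the leading pair was reversed, with interstitial cells at 174 to 221 CPM and endothelial cells at 155 to 170 CPM.

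**Figure D2:**
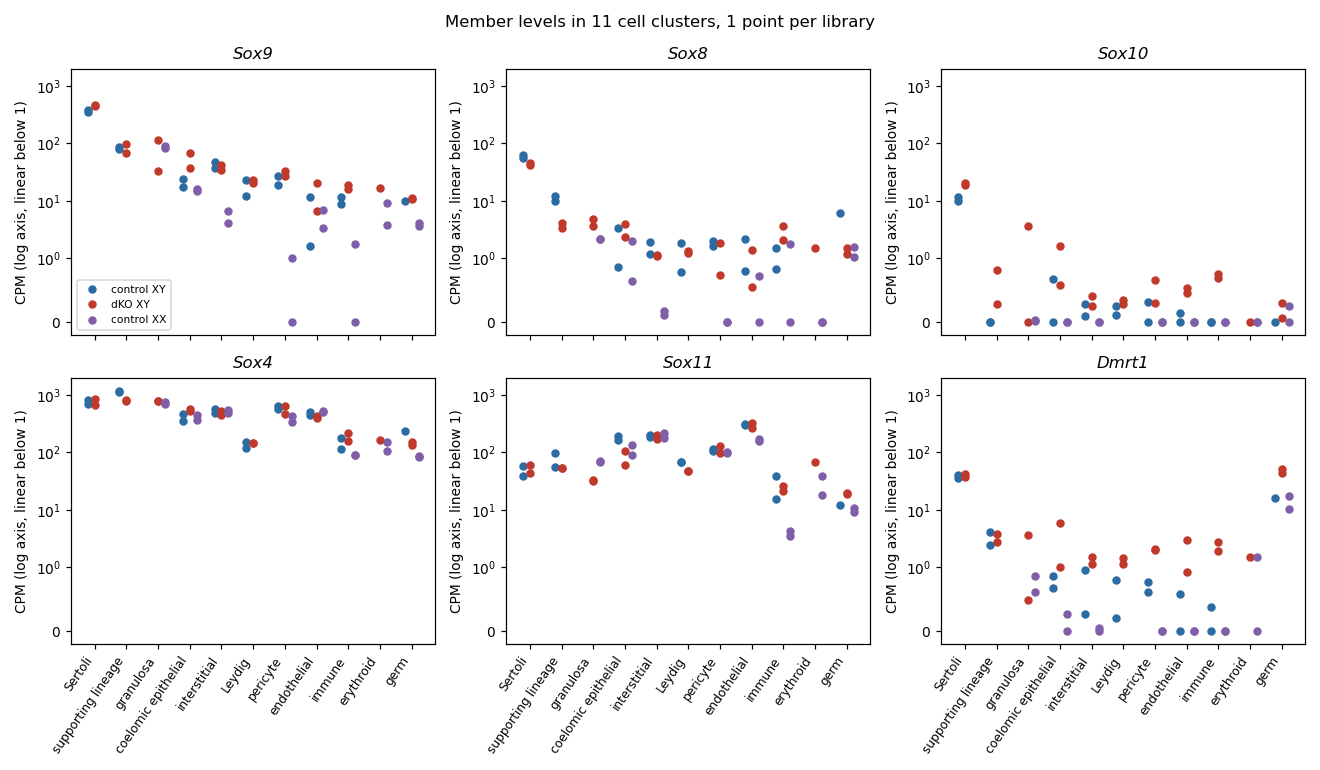
Levels of the 6 genes in 11 cell types, merged from 13 clusters (horizontal axis), in CPM on a vertical axis that is logarithmic above 1 and linear below, 1 point per library with at least 10 cells of the type, in blue for control XY, red for dKO XY and purple for control XX. *Sox9*, *Sox8* and *Sox10* peak in Sertoli cells, *Dmrt1* in Sertoli and germ cells, *Sox4* is found in every type and *Sox11* peaks in endothelial or interstitial cells.

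In interstitial cells, the fibroblast-like cells between the cords, 0 of the 6 genes were called between dKO XY and control XY, where 7.12% of all genes were called (0 had an unadjusted p under 0.05 in this edgeR test, and DESeq2 called 0). Between control XX and control XY interstitial cells 4 of the 6 were called lower, beside 25.4% of all genes. These groups lay mostly in different interstitial clusters. That led by *Il33*, *Gdf10* and *Crabp1* held 1534 and 2944 cells of control XX and 264 and 237 of control XY. The others held 3392 and 3951 and 1627 and 2126 cells of control XY, and at most 5 of control XX per library. This comparison cannot tell apart another kind of cell, another level per cell and Sertoli transcripts free in the cell suspension. The control XX libraries held no cells of the Sertoli cluster. *Sox9* stood at 37.2 and 46.6 CPM in control XY, 41.9 and 34.7 CPM in dKO XY, and 6.53 and 4.16 CPM for the control XX pair. The control XX libraries were well below all XY libraries, with a log2 fold change of -2.94 (SE 0.21, adjusted p = 3.75e-05 in the edgeR test). *Sox8* was at 1.17 and 1.89 CPM in the control XY pair, against 0.17 and 0.11 CPM in the control XX pair. *Sox10* had 51 UMIs in control XY and 0 in control XX, at least 6.69-fold higher against a floor of 3 UMIs over the group, and *Dmrt1* was at 0.26 and 0.95 CPM in the control XY pair, against 0.06 and 0 CPM in the control XX pair. The *Sox10* call was lost without control XY replicate 2 or either control XX library, and that of *Dmrt1* without control XX replicate 2. In control XY endothelial cells *Sox8* was at 0.80 and 2.16 CPM, *Sox10* at 0 and 0.14 CPM and *Dmrt1* at 0 and 0.58 CPM. The part of free transcripts in the interstitial levels was not tested.

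The ratios of *Sox9* to other Sertoli genes differed between cell types. In the Sertoli cluster of control XY there were 5.66 to 6.91 *Sox9* UMIs per *Sox8* UMI and 1.70 to 1.75 per *Dhh* UMI, and in interstitial cells of the same libraries 24.6 to 31.7 and 14.0 to 31.3. The dKO XY libraries had 9.92 to 11.3 *Sox9* UMIs per *Sox8* UMI in Sertoli and 31.2 to 36.6 in interstitial cells. Pericytes (11.3 to 13.5 per *Sox8* and 8.75 to 9.0 per *Dhh* UMI) and Leydig cells (12.5 to 15.6 and 4.19 to 7.12) of control XY also had higher ratios than the Sertoli cluster. Other ratios were nearer to each other. *Dmrt1* per *Dhh* was 0.22 to 0.29 in interstitial cells and 0.179 to 0.182 in the Sertoli cluster of control XY. *Sox8* per *Dhh* was 0.57 to 0.99 and 0.25 to 0.31. *Amh* had 1455 and 4281 UMIs in control XY interstitial cells, beside 150 and 444 of *Dhh*. In the Sertoli cluster *Amh* had 16660 and 29692 UMIs, beside 1694 and 3056 of *Dhh*. The part of free transcripts in these levels was not tested.

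Leydig cells, the androgen-producing cells, were found in the XY libraries alone (0 cells in either control XX library) and gave 1 call among the 5 members tested, where 7.16% of all genes were called. *Sox11* was at 69.1 and 67.4 CPM in control XY Leydig cells, against 47.8 and 47.9 CPM in the dKO XY pair. The pairs were tight and apart, with a log2 fold change of -0.54 (SE 0.08, adjusted p = 0.0098 in the edgeR test), which held with each of the 4 libraries left out. *Dmrt1*, at 0.20 and 0.80 CPM against 1.13 and 1.47 CPM, was not called (adjusted p = 0.18 in the same test) but was with a replicate block, without the filter on low counts or without control XY replicate 2. In the same Leydig cells germ cell markers summed to 5.62 to 6.20 CPM in control XY and 24.7 to 36.1 CPM in dKO XY, the 8 interstitial markers to 1032 to 1042 CPM and 786 to 825 CPM, and the 6 Leydig markers to 31390 to 33345 CPM and 23923 to 23985 CPM. Their part in the *Sox11* and *Dmrt1* levels was not tested. In endothelial cells, where 0.489% of all genes were called, 0 of the 3 members tested (*Sox9*, *Sox4* and *Sox11*) were called by edgeR (0 with an unadjusted p under 0.05) or by DESeq2, and *Sox11* was at 296 and 316 CPM in the control XY pair, against 262 and 322 CPM in the dKO XY pair.

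The dKO XY effects in supporting cells were also set against those in other cells of the same libraries, in an edgeR test of the difference itself. For *Sox8* and *Dmrt1* the log2 fold change of supporting cells was below that of interstitial cells, 2 of the 6 members beside 20.8% of all genes called in that test. Against Leydig cells *Sox8*, *Dmrt1* and *Sox11* were called, where 20.3% of all genes were. *Sox8* and *Dmrt1* were at most 1.89 CPM in interstitial and Leydig cells of each XY library.

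**Figure D3:**
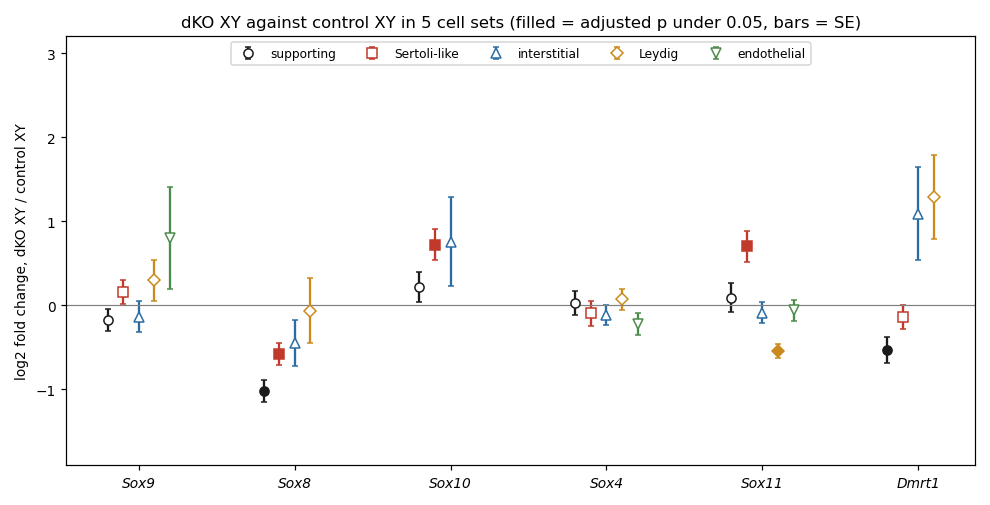
Log2 fold changes of dKO XY over control XY (vertical axis, bars of 1 SE) for the 6 genes in 5 cell sets, with filled symbols for an adjusted p under 0.05 in edgeR. *Sox8* is filled in supporting (-1.02) and Sertoli-like cells (-0.57), *Dmrt1* in supporting cells, *Sox10* and *Sox11* in Sertoli-like cells (0.72 and 0.70) and *Sox11* in Leydig cells (-0.54).

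Single cells were compared after each was thinned to 5000 UMIs, which all cells of these sets had. *Sox9* had a UMI in 76.3% and 80.8% of control XY and in 85.0% and 83.8% of dKO XY Sertoli-like cells. In dKO XY endothelial cells, which should lack it, the share was 1.95% and 4.80% (median depth before thinning 34634 to 42807 UMIs, against 25329 to 36948 in dKO XY Sertoli-like cells). In the *Tnnt2*-led cells of the same libraries it was 35.1% and 22.6%, above that background. Control XX granulosa-like cells had 17.0% and 24.4%, above the 3.15% and 0.855% of the endothelial cells of their own libraries (median depths 22212 to 24874 and 30866 to 34139 UMIs).

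The weaker members were found in a minority even of Sertoli-like cells at this depth. *Sox8* had a UMI in 21.6% and 27.3% of the Sertoli-like cells in control XY, against 17.7% and 20.8% in dKO XY. *Sox10* had one in 5.26% and 7.86% and in 11.1% and 10.3%, and *Sox11* in 11.6% and 10.8% and in 23.7% and 14.8%. *Sox8* was lower in both dKO XY libraries than in both controls, but with 20.8% and 21.6% as the nearest values. *Sox10* and *Sox11* were higher. The shares are drawn from the same UMIs as the CPM, so their like order adds no support, and they were not tested. *Dmrt1* was in 21.6% and 17.0% and in 18.3% and 16.6%, overlapping between the groups. *Sox4* was in at least 89.2% of the cells of each supporting subset.

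**Figure D4:**
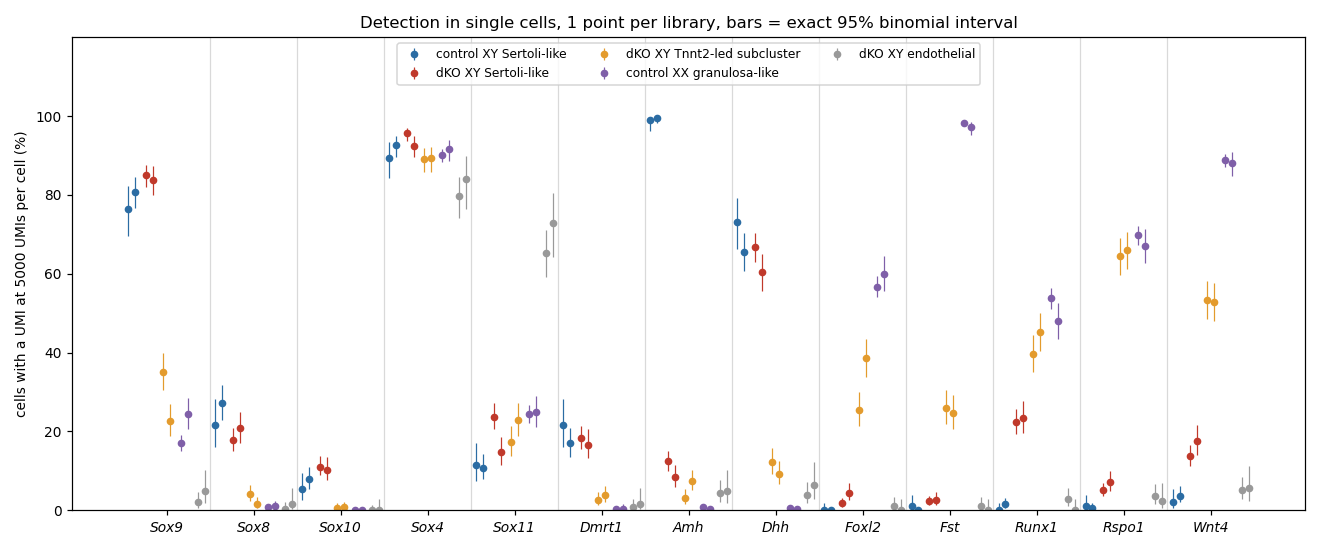
Share of cells with at least 1 UMI after thinning to 5000 UMIs per cell (vertical axis, percent), for the 6 genes and 7 partners, 1 point per library with its exact 95% binomial interval, in control XY Sertoli-like (blue), dKO XY Sertoli-like (red), dKO XY *Tnnt2*-led (orange), control XX granulosa-like (purple) and dKO XY endothelial cells (grey). *Sox9* stands at 85.0% and 83.8% in dKO XY Sertoli-like and at 35.1% and 22.6% in *Tnnt2*-led cells, whereas *Foxl2* stands at 1.77% and 4.45% and then at 25.5% and 38.6%.

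*Sox9* and *Foxl2* were found together in a small share of dKO XY supporting cells. Both had a UMI in 62 of 1284 cells (4.83%, exact 95% interval 3.72 to 6.15) and in 51 of 961 (5.31%, 3.98 to 6.92). Among cells with *Sox9*, 7.99% and 10.5% had *Foxl2*, and among cells without it 17.1% and 32.3% did, so *Foxl2* was the rarer where *Sox9* was found in both libraries. Of the cells with both, 40 and 33 lay in the *Tnnt2*-led subcluster and 9 and 13 among Sertoli-like cells. Within the *Tnnt2*-led cells *Foxl2* was in 27.4% and 34.7% of those with *Sox9* and in 24.4% and 39.7% of those without, higher in 1 library and lower in the other. In control XY both were found in 0 of 255 and 2 of 529 supporting cells, and in control XX in 455 of 3035 and 179 of 1197 (15.0% in each), where *Foxl2* was in 72.8% and 67.0% of cells with *Sox9* and 52.3% and 48.6% of those without.

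*Sox9* and *Runx1* were found together in 15.7% (13.8 to 17.8) and 14.9% (12.7 to 17.3) of dKO XY supporting cells, against 0% and 1.13% in control XY. These shares are at 5000 UMIs per cell and depend on depth, and the mean over the 2 dKO XY libraries went from 15.3% to 29.3% at 10000 UMIs and 54.9% without thinning, and to 2.52% with at least 2 UMIs of each gene. Without thinning *Sox9* alone had a UMI in 19.5% to 28.8% of dKO XY endothelial cells, so the background rose with depth as well. In dKO XY endothelial cells *Runx1* had a UMI in 2.73% and 0% of cells, *Foxl2* and *Fst* each in 1.17% and 0%, *Rspo1* in 3.52% and 2.40% and *Wnt4* in 5.08% and 5.60%. Among dKO XY Sertoli-like cells *Runx1* was in 22.4% and 22.1% of those with *Sox9* and in 22.5% and 30.4% of those without. *Sox9* was found with *Rspo1*, the ovarian R-spondin gene, in 9.66% and 9.37%, with *Wnt4*, its partner in ovarian signalling, in 14.6% and 12.8%, and with *Fst* in 5.06% and 3.95% of dKO XY supporting cells (for *Fst*, a mean of 17.9% without thinning). *Rspo1* was in 16.0% and 18.4% of cells with *Sox9* and in 51.6% and 59.2% of those without. *Dhh* had the opposite distribution, with 54.8% and 51.4% of cells with *Sox9* and 19.1% and 12.7% of those without.

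Counts of the other members with *Foxl2* were low at 5000 UMIs per cell. *Sox8* was found with it in 8 of 1284 and 6 of 961 dKO XY supporting cells, *Dmrt1* in 1 and 14, and *Sox10* in 1 and 2. With *Runx1* they were found in 2.49% and 1.77% (*Sox8*), 2.10% and 2.81% (*Dmrt1*) and 1.32% and 0.83% (*Sox10*) of the cells. Without thinning the means over the 2 libraries were 26.3%, 28.5% and 17.1%, and with at least 2 UMIs of each gene they were 0%, 0.039% and 0%, so these low shares do not show that the pairs are rare. *Sox8* was in 15.3% and 17.8% of cells with *Sox9* and in 4.33% and 2.96% of those without, and *Dmrt1* in 14.8% and 13.9% against 4.72% and 5.71%. Leaving out the 8% of cells with the highest doublet scores gave 5.15% for *Sox9* with *Foxl2*, beside a mean of 5.07% over the 2 libraries. The share depended on depth, and without thinning it was 22.9%. *Sox9* alone had a UMI in 19.5% to 28.8% of dKO XY endothelial cells without thinning. The part of free transcripts in the unthinned shares was not tested.

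Of 15 other Sox genes 9 could be tested in supporting cells, and 2 were higher and 0 lower in dKO XY than in control XY (median log2 fold change of the 9, 0.36), in the comparison that called 16.7% of all genes. *Sox5*, a SoxD gene, was at 14.3 and 13.7 CPM in the control XY pair, against 28.2 and 31.1 CPM in the dKO XY pair (1.10, SE 0.15), and *Sox2*, a pluripotency gene also active in germ cells, was at 1.97 and 0.52 CPM and at 5.79 and 9.93 CPM (2.87, SE 0.49), beside the germ cell transcripts given above. Of 7 other Dmrt genes 5 were tested and 2 were higher (median 1.00), among them *Dmrta1*, from 6.78 and 6.39 CPM to 21.6 and 22.1 CPM (1.75, SE 0.16), the other being *Dmrtc2* at under 1 CPM in all 4 libraries. In Sertoli-like cells 3 other Sox genes were higher (*Sox5*, *Sox2* and *Sox13*) and 1 lower, the endothelial and lymphatic gene *Sox18* (13.4 and 11.8 CPM in control XY, 3.19 and 2.97 CPM in dKO XY, log2 fold change -2.07, SE 0.26), and *Dmrta1* was the only Dmrt gene called of 5 tested. Of all genes 14.9% were called there. The medians of these Sertoli-like lists were 0.65 and 1.51, beside 0.00017 for all genes tested.

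Among 11 genes that act upstream of *Sry* or *Sox9*, 10 were tested, and 2 were higher and 1 lower in dKO XY supporting cells (median 0.17), beside 9.9% and 6.84% of all genes. *Emx2*, a homeobox gene of the early gonad, was at 13.9 and 10.1 CPM in the control XY pair, against 55.2 and 53.9 CPM in the dKO XY pair (2.21, SE 0.17), and *Gadd45g*, which feeds MAPK signalling to *Sry*, was at 31.5 and 35.0 CPM and at 152 and 119 CPM (2.03, SE 0.18). *Cbx2*, a Polycomb gene, was the lower one (14.7 and 13.6 CPM against 7.39 and 9.34 CPM, -0.74, SE 0.18). All 3 were called in the same direction in Sertoli-like cells, where *Six4* was higher as well (0.99 and 0.83 CPM against 4.04 and 7.07 CPM).

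Of 14 Sertoli signals and SOX9 or SOX8 targets, 5 were higher and 7 lower in dKO XY supporting cells (median -0.57), beside the same shares of all genes. The list includes both deleted genes, *Amh* and *Inhbb*, so its counts and medians partly reflect the deletion itself. *Amh*, a direct SOX9 target and 1 of the deleted genes, fell by 6.88 on the log2 scale (SE 0.17). *Serpina5*, a serine protease inhibitor, was at 57.7 and 54.5 CPM in the control XY pair, against 5.01 and 3.09 CPM in the dKO XY pair (-3.78, SE 0.23). *Fgf9*, the Sertoli growth factor that sustains *Sox9*, was at 6.41 and 7.61 CPM and at 38.9 and 30.3 CPM (2.29, SE 0.18), and *Col9a1*, a cartilage target of SOX9, at 0.74 and 0.65 CPM and at 8.32 and 11.2 CPM (3.85, SE 0.35). In Sertoli-like cells the counts were 5 higher and 6 lower (median -0.24), with the same 4 genes leading in the same directions. The list of 12 ovarian pathway genes had 8 higher and 0 lower in both sets, with medians of 1.58 and 1.92. *Rspo1* was at 4.93 and 3.29 CPM in the control XY pair, against 126 and 155 CPM in dKO XY supporting cells (5.16, SE 0.22), *Runx1* at 2.22 and 3.10 CPM and 72.5 and 88.1 CPM (4.87, SE 0.25), *Nr0b1*, the gene of DAX1, at 11.5 and 8.71 CPM and 47.8 and 37.4 CPM (2.11, SE 0.18) and *Wnt4* at 46.5 and 57.8 CPM and 140 and 161 CPM (1.54, SE 0.15).

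In control XX against control XY supporting cells the same lists gave 1 higher and 5 lower of the 9 other Sox genes, with *Sox6*, *Sox18* and *Sox13* among the lower and *Sox5* the higher, 2 higher and 1 lower of the Dmrt genes, 3 and 5 of the upstream genes, 1 and 11 of the Sertoli genes and 9 and 2 of the ovarian genes, in a comparison with 25.1% of all genes higher and 23.6% lower. In dKO XY against control XX the counts were 5 higher and 1 lower, 2 and 1, 5 and 2, 12 and 1, and 3 and 8, where 40.8% of all genes were called. *Sox6*, a SoxD gene, stood at 21.8 and 34.1 CPM in control XY, 26.5 and 24.3 CPM in dKO XY and 2.42 and 3.14 CPM in control XX supporting cells. *Sox5* ran the other way, at 70.2 and 59.3 CPM in control XX.

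The genes whose levels followed each member most closely were found over 44 sums of cluster and library with Pearson's r on log2 CPM, as a description, since sums of a library share depth and cell types share origin. *Ptgds* (prostaglandin D synthase, r = 0.87), *Aard* (0.84) and *Hs6st1* (0.84) were nearest to *Sox9*. *Aard* (0.85), *Sox9* (0.84) and *Ptgds* (0.84) were nearest to *Sox8*, and *Aard* (0.82), *Cst9* (0.81) and *Akr1b3* (0.81) to *Sox10*. For *Dmrt1* they were *Cited1* (0.89), *Get4* (0.85) and *Jade1* (0.84). *Sox4* was followed by *Gm26735* (0.94), the gene that overlaps it on the opposite strand, then *Nynrin* (0.91) and *Sall2* (0.91), and *Sox11* by *Armcx4*, *Tspan9* and *Amotl1* (0.94 each). Among the members, *Sox9* and *Sox8* had r = 0.84 and *Sox8* and *Sox10* 0.80, while *Sox11* had -0.002 with *Sox9* and 0.63 with *Sox4*.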

How the data were processed

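Single cell mRNA libraries (10x Genomics) of 2 control XY, 2 dKO XY and 2 control XX gonads were analysed. The authors aligned reads to mm10 and counted UMIs with Cell Ranger, corrected barcode swapping and deposited raw counts per gene and barcode, without normalization. They later used Seurat, for which the labels and the study's methods name different versions. Gene lists were merged over their union, with missing genes as 0. Cells with over 2500 and under 9000 genes, under 25% mitochondrial and under 20% *Hbb* UMIs were kept (39350 of 68064 barcodes). Seurat 5.3.0 clustered them (3000 variable genes without those tested here, 20 dimensions, resolution 0.21), and supporting cells with log-normalized *Sycp3* and *Tcf21* under 1 again (8 dimensions, resolution 0.25). A cluster took the name of the marker class whose mean log2 fold was highest, given 3 or more markers found in 10% of its cells at 1.5 times the level elsewhere. A subcluster with germ cell genes leading kept its Sertoli name as at least 2 Sertoli markers were among its top 10 genes, a rule chosen after its values were seen. Scrublet (scanpy 1.11.5) did not find a working doublet threshold, so doublets were treated only as an alternative without the top 8% of scores.

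Sums of UMIs over the cells of a type in a library (10 cells or more) were tested with edgeR 4.0.16 (filterByExpr, TMM, glmQLFit and glmQLFTest, group as the only factor, all groups in 1 fit, XY alone for Leydig cells), adjusted by Benjamini-Hochberg over all genes and called under 0.05. In the Sertoli-like fit the control XX sums were those of granulosa-like cells. They enter its filter, normalization and estimate of the spread. SE is the log2 fold change over the square root of F. An exact permutation test of 2 against 2 libraries cannot go below p = 0.333 and was not used. Replicates are separate libraries, which the study describes as biologically independent. Thinning drew 5000 UMIs per cell without replacement. Alternatives were DESeq2 1.42.0, RLE factors, no filter, a replicate block, other cell filters and subclusterings, and leaving out each library. Leaving out the supporting lineage cluster, using the dividing Sertoli-like subcluster alone and crossing replicate numbers were chosen after seeing the data. The scripts were tested on simulated data with 200 changed genes. Named genes are the members, up to 4 called genes per list and comparison by adjusted p, the co-detection partners and the 3 nearest genes per member. Other named genes (*Inhbb*, glial and germ markers) were chosen after their values were seen. Some glial markers, and the sum over that list, are not reported here. Members and lists were chosen with earlier results of these data known. Coordinates are GENCODE M21 on GRCm38, matched by symbol.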

Additional observations from a re-analysis of the deposited data

Results flagged for a closer look

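The effect of dKO XY differed between cell types for 3 members, in tests of the difference itself that were added after the data were seen (edgeR's quasi-likelihood test, Benjamini-Hochberg adjustment over all genes). Of all genes, 20.8% were called against interstitial cells and 20.3% against Leydig cells. Against interstitial cells the log2 fold change of supporting cells was lower by 0.62 for *Sox8* (a difference of -0.62, SE 0.17, adjusted p = 0.023) and of *Dmrt1* by -1.68 (SE 0.42, adjusted p = 0.014). Against Leydig cells the difference was -0.98 for *Sox8* (SE 0.29, adjusted p = 0.030), -1.83 for *Dmrt1* (SE 0.43, adjusted p = 0.0091) and 0.60 for *Sox11* (SE 0.15, adjusted p = 0.015).

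*Dmrt1* was under 1.6 CPM in each XY library of both other cell types. *Sox8* was low there too, at 1.11 to 1.89 CPM in interstitial and 0.79 to 1.82 CPM in Leydig cells. Endothelial cells of the XY libraries had 0.56 to 2.16 CPM of *Sox8*. Germ cell markers summed to 4.82 to 5.12 CPM in control XY and 32.5 to 41.6 CPM in dKO XY interstitial cells, and to 5.62 to 6.20 CPM and 24.7 to 36.1 CPM in Leydig cells. Their part in the *Dmrt1* differences was not tested.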

How the results depend on the processing

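Of 121 values of the main comparisons under alternative settings 106 were counted as the same and 15 as moved. Most of these values are numbers of members called, whichever members they were, and a fall from 3 to 2 counts as the same. The rest are levels or shares, counted as the same within the SD of the libraries. Of 667 values of single genes 586 were unchanged in direction and call, 24 turned sign, 27 lost and 8 gained a call, and 22 moved. Members called in supporting cells of dKO XY against control XY went from 2 to 1 with a replicate block and with cells under 10% mitochondrial UMIs, to 3 (*Sox11* added) without cells with *Sycp3* or *Tcf21*, and ranged from 1 to 2 with a library left out. Without the supporting lineage cluster the 2 called were *Sox8* and *Sox10* in place of *Sox8* and *Dmrt1*. The leave-one-out range was 1 to 3 in Sertoli-like cells (3 called), 2 to 4 in control XX against control XY interstitial cells (4 called) and 1 to 3 in Leydig cells (1 called), where the replicate block and no filter on low counts each gave 2. *Sox9* with *Foxl2* was found in 10.4% of dKO XY supporting cells at 10000 UMIs, 22.9% without thinning and 0.663% with at least 2 UMIs of each, and *Sox9* in the dKO XY Sertoli cluster moved from 457 to 489 CPM without the top 8% of doublet scores. The cause was not tested.

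Signs turned for changes that were not called in the reported fit. In supporting cells *Sox10* was -0.11 under 10% mitochondrial UMIs, *Sox4* -0.033 without cells with *Sycp3* or *Tcf21*, and, without the supporting lineage cluster, *Sox9* 0.22 and *Sox4* -0.018. In Sertoli-like cells *Sox9* was -0.071 with components of the supporting cells alone and -0.047 in the cycling subcluster, and in Leydig cells *Sox8* was 0.24 under 10% mitochondrial UMIs. With a library left out the ranges were -0.074 to 0.12 (*Sox4*) and -0.15 to 0.39 (*Sox11*) in supporting cells, -0.28 to 0.067 (*Sox4*) in Sertoli-like cells, -0.29 to 0.038 (*Sox9*) and -0.17 to 0.0090 (*Sox11*) in dKO XY against control XY interstitial cells, and -0.045 to 0.14 (*Sox4*) and -0.029 to 0.21 (*Sox11*) in control XX against control XY interstitial cells. They were -0.075 to 0.81 (*Sox9*, called without control XY replicate 2), -0.10 to 0.26 (*Sox4*) and -0.52 to 0.68 (*Sox8*) in Leydig cells, and -0.19 to 0.065 (*Sox11*) and -0.15 to 3.03 (*Sox9*) in endothelial cells.

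Of all genes, 2668 were called in the same comparison, and 1143 without control XY replicate 2 and 1677 without dKO XY replicate 2. Sertoli-like cells gave 2186 and 1286 without control XY replicate 2. Interstitial cells gave 1207, with 1833 without the filter, 765 with the block, and 352, 475 and 676 without control XY replicate 1, control XY replicate 2 or dKO XY replicate 2, and for control XX 4301, with 2694 and 2645 without either control XY library. Leydig cells gave 1036, with 2188 without the filter and 2397 with the block. Endothelial cells gave 59, with 369 without the filter, 25 and 16 without either control XY library and 109 without dKO XY replicate 1.

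Same-numbered libraries deviated together with r = 0.161 (control XY and dKO XY), -0.305 (control XY and control XX) and -0.375 (dKO XY and control XX) over genes of supporting cells. Not every pair was over 0.1, so the numbers as given were not taken as pairs. With 2 libraries per group, crossing the control XX numbers turns the sign of both negative values, and a structure shared between the groups was not tested further. With the replicate block *Dmrt1* in supporting cells was -0.54 and *Sox11* in control XX 0.47, both no longer called, and 2221 genes were called in supporting cells. Crossing the control XX numbers, chosen after seeing the data, gave 8707 calls against control XY (7041 with the block as numbered) and 7706 against dKO XY (5688). With 2 libraries per group and 3 UMIs of *Sox10* in control XX supporting cells, low levels were limited by depth.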
